A study of Mus musculus with 12 samples.

Results

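Interferon regulatory factors are transcription factors that share a DNA-binding domain and recognise GAAA repeats in the promoters of interferon and interferon-stimulated genes. The 8 genes described here, Irf1, Irf2, Irf3, Irf4, Irf5, Irf7, Irf8 and Irf9, were taken by symbol from a table of 24062 genes, and all 8 had enough reads to be among the 13509 genes tested. Messenger RNA had been sequenced from sorted CD4+ T cells of C57BL/6 mice in 6 groups of 2 libraries (n = 2 for every level below). Regulatory T cells (Treg) were the CD4+GFP+ cells and conventional T cells (Tconv) the CD4+GFP- cells, each sorted from 3 sources: tumour, spleen of tumour-bearing mice (TB spleen) and spleen of normal mice. TB mice had been given TC-1 cells, a transplantable mouse tumour line, into the tail vein 3 weeks before tissue was taken. The labels mark the tumour libraries LG and describe no sample of that organ from a tumour-free mouse, so tumour and organ cannot be told apart in any tumour against spleen difference below. The labels do not say whether a group's libraries came from separate mice, and p-values measure the spread between these libraries, which may be technical.

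Some members relay interferon signalling: IRF3 and IRF7 are switched on by sensors of foreign nucleic acid and drive interferon genes, and IRF9 joins STAT2 in the complex that type I interferon activates. IRF1 is induced by interferon gamma, and IRF2 competes for many of the same sites. IRF4 and IRF8 bind DNA weakly alone and act with partners such as BATF and JUN or PU.1. In T cells IRF4 is induced by antigen receptor signalling and is needed for effector Treg, while IRF5 and IRF8 are best known from myeloid and B cells.

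The sort and the depth were checked first. Foxp3, the transcription factor that defines Treg, had 23413 to 28528 counts in Treg libraries and 253 to 412 in Tconv libraries. Total counts ran from 18624132 to 24111546 per library, and the members with the fewest reads were Irf5 in Tconv, with 60 to 171 counts, and Irf8 in Tconv, with 152 to 325. Transcripts of other cells were present in the tumour libraries. The 5 macrophage and monocyte markers in the table summed to 268 and 358 counts-per-million values (CPM) in tumour Treg and to 165 and 417 CPM in tumour Tconv, against 4.67 to 15.7 CPM in spleen. The 4 fibroblast markers summed to 192 to 452 CPM in tumour and to at most 1.86 CPM in spleen. The 17 immediate early and dissociation stress genes summed to 8957 to 13305 CPM in tumour against 2232 to 3913 CPM in spleen. Their part in the results was not tested. In bulk samples, fewer cells of a type and less RNA per cell cannot be told apart.

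Promoter sequences were searched for motifs of the pathway, because 4 members rose in the tumour in both cell types. RefSeq promoters on GRCm38.p6, from 250 bases before to 50 bases after a start site, were found for all 8 members (11 promoters). The core of the gamma-activated site bound by STAT dimers (TTCNNNGAA) was in 8.30% of the 32851 promoters in that table, the core of the interferon-stimulated response element (2 GAAA repeats with any 2 bases between them) in 3.44%, the Ets-IRF composite (GGAA, any 2 bases, then GAAA) in 2.72%, the AP-1 core (TGANTCA) in 7.81% and the AP-1-IRF composite (TGANTCA followed directly by GAAA) in 0.131%, counting both strands. The Ets-IRF and response element motifs can overlap, and the AP-1-IRF composite contains the AP-1 core. Among members, 3 genes held the gamma-activated site core and 1 held each of the response element and Ets-IRF motifs, and 0 held either AP-1 motif. These are counts of genes, while the percentages are of promoters, and Irf1, Irf8 and Irf9 have 2 promoters each. Irf1, Irf2 and Irf8 each held the gamma-activated site core in 1 promoter. The first promoters of Irf1 and Irf8, both higher in the tumour, are shown with the matches in capitals, beside those of Irf7, which had the largest rise in Treg and no match, and of Irf2, which did not pass the test in the tumour and has matches to 3 motifs. Each is written 5′ to 3′ on the gene's strand, with its region and strand after the name.
Irf1 promoter, chr11:53769764-53770063, plus strand: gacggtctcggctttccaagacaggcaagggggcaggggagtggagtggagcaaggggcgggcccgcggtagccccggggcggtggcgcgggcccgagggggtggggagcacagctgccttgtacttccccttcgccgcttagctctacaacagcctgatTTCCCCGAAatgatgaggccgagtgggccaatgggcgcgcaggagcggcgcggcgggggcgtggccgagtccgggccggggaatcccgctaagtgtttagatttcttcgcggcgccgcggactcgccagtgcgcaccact
Irf8 promoter, chr8:120736108-120736407, plus strand: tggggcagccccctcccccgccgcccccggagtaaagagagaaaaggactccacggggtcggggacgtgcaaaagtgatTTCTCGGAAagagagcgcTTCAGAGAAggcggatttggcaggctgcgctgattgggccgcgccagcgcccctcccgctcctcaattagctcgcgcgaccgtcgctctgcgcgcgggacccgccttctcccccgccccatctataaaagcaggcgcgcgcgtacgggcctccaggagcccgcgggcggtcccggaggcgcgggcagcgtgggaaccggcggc
Irf7 promoter, chr7:141266375-141266674, minus strand: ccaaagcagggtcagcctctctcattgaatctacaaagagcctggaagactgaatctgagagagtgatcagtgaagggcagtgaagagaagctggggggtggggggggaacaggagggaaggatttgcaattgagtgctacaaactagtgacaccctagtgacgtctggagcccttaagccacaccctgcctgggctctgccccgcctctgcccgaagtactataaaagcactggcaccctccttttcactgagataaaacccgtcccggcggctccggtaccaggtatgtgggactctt
Irf2 promoter, chr8:46739495-46739794, plus strand: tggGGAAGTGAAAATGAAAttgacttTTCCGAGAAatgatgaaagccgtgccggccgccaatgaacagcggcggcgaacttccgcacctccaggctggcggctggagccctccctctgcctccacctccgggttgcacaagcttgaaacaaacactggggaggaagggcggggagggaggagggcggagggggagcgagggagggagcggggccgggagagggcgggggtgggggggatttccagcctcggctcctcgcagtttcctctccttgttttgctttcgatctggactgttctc
The Irf1 match is TTCCCCGAA, starting 90 bases before the start site. Irf8 has TTCTCGGAA at 171 and TTCAGAGAA at 153 bases before it. In Irf2, GGAAGTGAAA at 247 bases before the start overlaps GAAAATGAAA at 241, and TTCCGAGAA follows at 224. A match describes the letters only. No motif searched was found in the promoters of Irf3, Irf4, Irf5, Irf7 or Irf9, which says only that these letters are not in this window.

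Irf7 had the largest tumour-linked rise of the 8 in Treg. It encodes the factor that amplifies type I interferon production and is itself an interferon-stimulated gene (chromosome 7, 141262706 to 141266481, minus strand, GRCm38). Its level was 405 and 352 CPM in tumour Treg, 70.0 and 92.5 CPM in TB spleen Treg, and 64.9 and 69.3 CPM in normal spleen Treg. In Tconv it was 287 and 211 CPM in tumour, 96.0 and 110 CPM in TB spleen, and 68.6 and 73.1 CPM in normal spleen. Both tumour groups lay above every spleen library, and the 2 tumour groups did not overlap, whereas TB spleen Treg overlapped normal spleen Tconv. Between tumour and TB spleen, Irf7 was 4.66-fold higher in Treg (log2 fold change 2.22 ± 0.15 SE, adjusted p = 2e-07 by edgeR's quasi-likelihood test with Benjamini-Hochberg adjustment) and 2.41-fold higher in Tconv (1.27 ± 0.15, adjusted p = 2.45e-05). In the tumour it was 1.52-fold higher in Treg than in Tconv (0.61 ± 0.14, adjusted p = 0.00338). In TB spleen the sign was the other way and did not pass the test (-0.35 ± 0.15, adjusted p = 0.0870).

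Irf3, the constitutive partner of Irf7 in nucleic acid sensing, was the single member called lower in tumour than in TB spleen in both cell types by the edgeR test (chromosome 7, 44997648 to 45002848, plus strand). It measured 58.8 and 63.5 CPM in tumour Treg and 64.9 and 60.3 CPM in tumour Tconv. Spleen libraries held 88.0 and 83.3 CPM (TB Treg), 94.8 and 98.7 CPM (normal Treg), 94.6 and 93.8 CPM (TB Tconv), and 89.0 and 92.8 CPM (normal Tconv). The 4 tumour libraries were therefore the lowest, and the 2 tumour groups overlapped each other. The fall was 1.40-fold in Treg (-0.49 ± 0.07, adjusted p = 6.27e-05) and 1.51-fold in Tconv (-0.59 ± 0.07, adjusted p = 2.13e-05). No Treg against Tconv difference of Irf3 passed the test at any site.

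Irf1 rose in the tumour by a like amount in both cell types (chromosome 11, 53770014 to 53778374, plus strand). Levels were 426 and 505 CPM in tumour Treg and 401 and 418 CPM in tumour Tconv. In TB spleen they were 278 and 289 CPM in Treg and 233 and 258 CPM in Tconv. In normal spleen they were 373 and 318 CPM in Treg and 327 and 333 CPM in Tconv. The TB spleen groups were lowest, normal spleen lay between, and tumour libraries were highest with no overlap with any spleen group. Tumour over TB spleen was 1.64-fold in Treg (0.72 ± 0.09, adjusted p = 4.14e-05) and 1.67-fold in Tconv (0.74 ± 0.09, adjusted p = 4.84e-05), and the difference between these changes was -0.02 on the log2 scale (95% interval -0.35 to 0.30).

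Irf2, the counterpart of Irf1 at shared sites, varied little (chromosome 8, 46739732 to 46847458, plus strand). Its means were 190 ± 31.3 CPM (SD) in tumour Treg, 199 ± 5.36 in TB spleen Treg and 236 ± 9.13 in normal spleen Treg. In Tconv they were 181 ± 14.2 CPM in tumour, 179 ± 9.59 in TB spleen and 221 ± 3.41 in normal spleen. Normal spleen groups were highest, and the 4 groups of TB mice overlapped their neighbours in the order of levels. Tumour against TB spleen was -0.06 ± 0.10 in Treg (adjusted p = 0.588) and 0.02 ± 0.10 in Tconv (adjusted p = 0.913) on the log2 scale. The tumour Treg libraries, at 168 and 213 CPM, straddled both TB spleen Treg libraries, and without tumour Treg replicate 2 the Treg difference was -0.24 with an adjusted p of 0.0301.

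Irf9, the DNA-binding subunit of the complex with STAT2, was the steadiest member (chromosome 14, 55603571 to 55610030, plus strand). Its group means spanned 0.37 log2 units over the 6 groups, from 174 ± 9.87 CPM in tumour Tconv to 225 ± 7.72 CPM in normal spleen Treg. The libraries were 179 and 201 CPM in tumour Treg and 201 and 231 CPM in TB spleen Treg. Tumour against TB spleen gave -0.19 ± 0.09 in Treg (adjusted p = 0.0849) and -0.12 ± 0.09 in Tconv (adjusted p = 0.304). The Treg difference passed the test without TB spleen Treg replicate 1 (-0.28, adjusted p = 0.0370), without tumour Treg replicate 2 (-0.27, adjusted p = 0.0396), without tumour Tconv replicate 2 (-0.21, adjusted p = 0.0478) and with unscaled library totals (-0.35, adjusted p = 0.00426). With those totals the Tconv difference passed as well (-0.23, adjusted p = 0.0477).

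Irf4 separated Treg from Tconv in spleen and did not in the tumour (chromosome 13, 30749226 to 30766976, plus strand). In Tconv it was 186 and 172 CPM in tumour, 29.0 and 34.2 CPM in TB spleen, and 28.2 and 23.6 CPM in normal spleen. In Treg it was 185 and 179 CPM in tumour, 101 and 109 CPM in TB spleen, and 115 and 111 CPM in normal spleen. The 4 tumour libraries overlapped each other and were above all spleen libraries, spleen Treg came next, and spleen Tconv was far below. Irf4 in Tconv was 5.66-fold higher in tumour than in TB spleen (2.50 ± 0.10, adjusted p = 1.72e-09), against 1.73-fold in Treg (0.79 ± 0.09, adjusted p = 1.07e-05). Treg exceeded Tconv 3.32-fold in TB spleen (1.73 ± 0.10, adjusted p = 3.36e-08) and 4.38-fold in normal spleen (2.13 ± 0.10, adjusted p = 6.28e-09). In the tumour the Treg against Tconv difference was 0.02 ± 0.09 (adjusted p = 0.870, 95% interval -0.19 to 0.24).

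Irf8 was higher in Treg than in Tconv at every site and highest in tumour Treg (chromosome 8, 120736358 to 120756694, plus strand). Treg libraries held 71.7 and 65.7 CPM in tumour, 24.7 and 26.5 CPM in TB spleen, and 34.0 and 29.2 CPM in normal spleen. Tconv libraries held 14.6 and 14.7 CPM in tumour, 7.92 and 9.43 CPM in TB spleen, and 9.53 and 10.2 CPM in normal spleen. No neighbouring groups overlapped, although the 2 spleen Tconv groups nearly touched. The tumour rise was 2.68-fold in Treg (1.42 ± 0.10, adjusted p = 2.54e-07) and 1.68-fold in Tconv (0.75 ± 0.12, adjusted p = 0.000259). Treg over Tconv was 4.69-fold in tumour (2.23 ± 0.11, adjusted p = 5.08e-09), 2.94-fold in TB spleen (1.56 ± 0.11, adjusted p = 3.68e-07) and 3.20-fold in normal spleen (1.68 ± 0.11, adjusted p = 1.47e-07).

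Irf5 marked Treg at every site by the widest margin among the 8 (chromosome 6, 29526625 to 29541871, plus strand). Treg libraries held 69.0 and 62.9 CPM in tumour, 47.3 and 47.3 CPM in TB spleen, and 35.7 and 37.4 CPM in normal spleen. Tconv libraries held 8.69 and 7.49 CPM in tumour, 3.86 and 7.68 CPM in TB spleen, and 3.47 and 2.86 CPM in normal spleen. All Treg libraries were above all Tconv libraries, and tumour and TB spleen Tconv overlapped through TB spleen replicate 2. Treg over Tconv was 8.18-fold in tumour (3.03 ± 0.19, adjusted p = 4.53e-08), 8.08-fold in TB spleen (3.01 ± 0.20, adjusted p = 1.25e-07) and 11.6-fold in normal spleen (3.53 ± 0.22, adjusted p = 6.93e-08). Of its exonic bases, 9.48% are shared with Tnpo3 on the opposite strand, and whether reads were counted by strand is not stated in any source used here. Reads of Tnpo3 could therefore be part of the Irf5 counts, or Irf5 reads on the shared bases could have been left uncounted. The share of bases does not give how many. The share of bases is 3.97% for Irf9 (with Rnf31, same strand), 3.00% for Irf1 (with Gm17334), 1.88% for Irf7 (with Phrf1) and 0.365% for Irf3 (with Bcl2l12), and 0 for the other members.

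The tumour difference of Irf5 was small, and in Tconv its size varied with the library left out. In Treg it was 1.39-fold (0.48 ± 0.16, adjusted p = 0.0199). It was 0.41 without tumour Treg replicate 1, and 0.48 without TB spleen Treg replicate 1 or 2. The call was lost in each of these fits, which left the group concerned without a replicate. It was lost as well with unscaled library totals (0.32, adjusted p = 0.0976). In Tconv the difference did not pass edgeR's test (0.46 ± 0.22, adjusted p = 0.107), while DESeq2 called it (0.51, adjusted p = 0.0485). Without TB spleen Tconv replicate 2, the Tconv difference was 1.06 with an adjusted p of 0.000779.

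**Figure D1:**
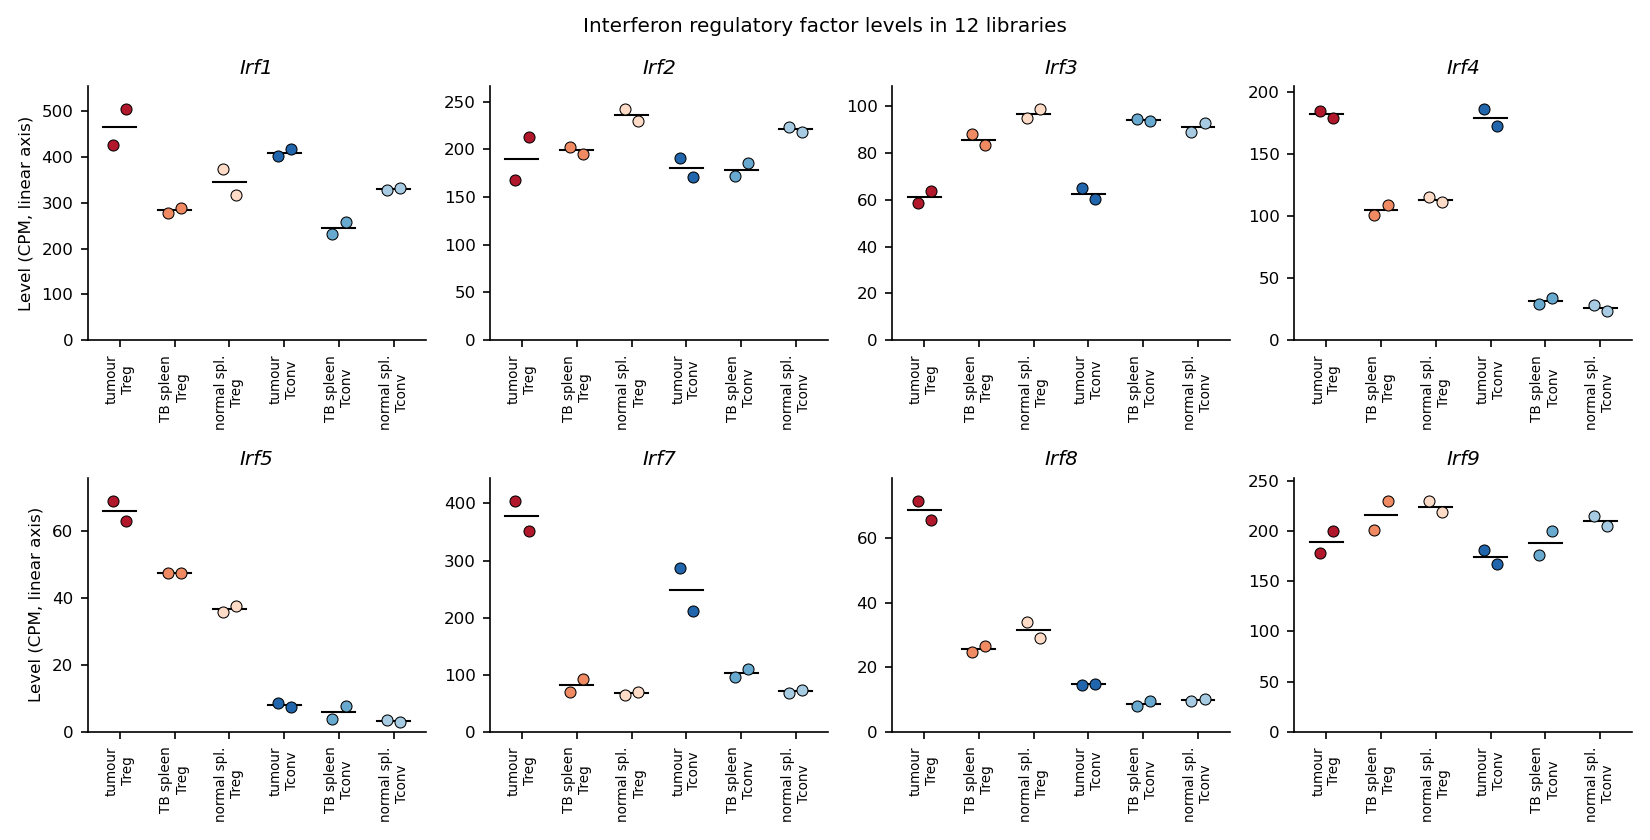
Levels in CPM on linear axes from 0, 1 panel per gene, with 2 points per group for the 2 libraries and a line at their mean. Irf5 and Irf8 are higher in the 6 Treg libraries than in the 6 Tconv libraries, Irf7 is highest in the 4 tumour libraries, and Irf4 reaches 172 to 186 CPM in all 4 tumour libraries against 23.6 to 34.2 CPM in spleen Tconv.

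Markers of cells known for Irf5 and Irf8 were read beside these levels. In tumour Tconv, Lyz2, a macrophage and neutrophil lysozyme, had 2713 and 8624 counts, while Irf8 was 14.6 and 14.7 CPM and Irf5 was 8.69 and 7.49 CPM in the same libraries. In spleen Treg, Lyz2 had 2 to 61 counts and Irf5 was 35.7 to 47.3 CPM. Of the 5 macrophage markers, 0 were at 0 counts in any tumour library. The B cell transcripts Ms4a1 and Pax5 had 0 to 9 counts in every library, while Cd79b had 371 to 568 counts in Treg and 11 to 30 in Tconv, so the summed B cell markers were 17.0 to 26.0 CPM in Treg and 1.18 to 2.06 CPM in Tconv. The 6 conventional dendritic cell markers summed to 36.1 and 39.5 CPM in tumour Treg and to 9.93 and 17.7 CPM in tumour Tconv, against 1.38 to 6.22 CPM in spleen, so every tumour library was above every spleen library. Zbtb46 gave most of the Treg sum, with 618 and 450 counts in tumour against 33 to 125 in spleen Treg. Itgax, an integrin of myeloid cells, had 169 and 254 counts in tumour Treg against 0 to 4 in spleen Treg, and the chemokine receptor Xcr1 had 118 and 119 against 5 to 15. Clec9a, Cd209a and Flt3 had 0 to 3 counts in tumour Treg. The 5 markers of plasmacytoid dendritic cells, which are rich in Irf7 and Irf8, summed to 194 and 231 CPM in tumour Treg against 59.2 to 80.3 CPM in spleen Treg, and to 132 and 166 CPM in tumour Tconv against 64.7 to 82.0 CPM in spleen Tconv. This sum came mostly from Bst2, itself an interferon-stimulated gene, with 4283 and 3107 counts in tumour Treg against 910 to 1285 in spleen Treg, and from Tcf4, with 697 and 951 against 162 to 257. Ccr9 had 344 and 381 counts in tumour Treg and 231 to 376 in spleen Treg, and Siglech and Klk1 were at 0 in all 6 Treg libraries. In tumour Tconv, Siglech had 18 and 16 counts against 0 to 17 in spleen Tconv, and Klk1 had 7 and 3 against 0 to 3. Bst2 had 1635 and 1852 counts in tumour Tconv against 737 to 1088 in spleen Tconv. Tcf4 had 454 and 1364 against 100 to 131, and Ccr9 had 224 and 434 against 289 to 625. The part of other cells in the tumour levels was not tested.

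Across both tumour comparisons, 5 members rose and 1 fell in Treg, where 61.4% of all tested genes were called (32.8% higher and 28.7% lower). In Tconv 4 rose and 1 fell, where 49.1% of genes were called (26.4% higher and 22.8% lower). With backgrounds this high, the counts alone say little about the members. The median log2 fold change of the 8 was 0.60 in each cell type, beside 0.02 in Treg and 0.00 in Tconv for all genes. With unscaled library totals, the all-gene median moved to -0.14 in Treg and -0.11 in Tconv, and the share of called genes that were higher went from 53.3% to 39.9% in Treg and from 53.7% to 41.5% in Tconv. Irf1, Irf4, Irf7 and Irf8 remained higher and Irf3 lower under every scaling tried.

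**Figure D2:**
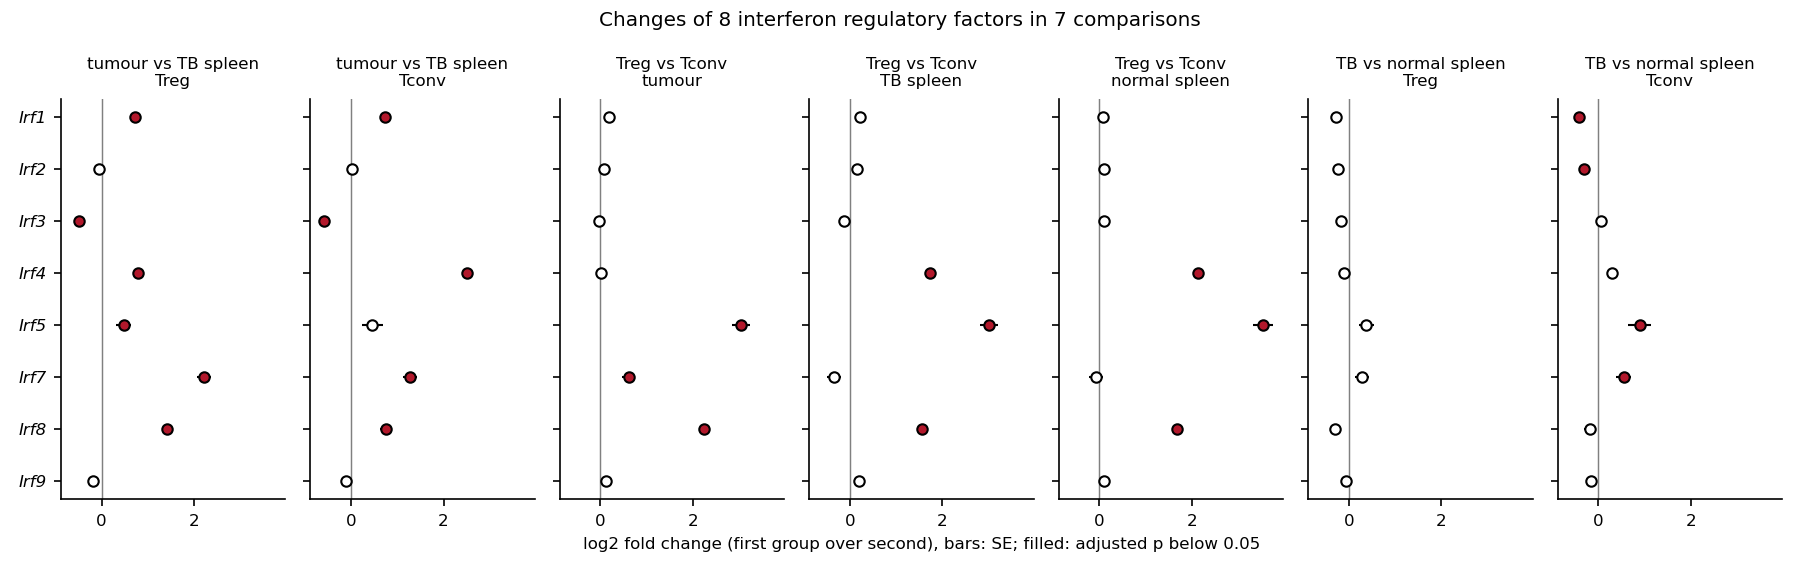
Log2 fold changes (first group over second) of the 8 genes in the 7 comparisons, with SE bars, filled where the adjusted p was below 0.05. Filled points beyond 1 log2 unit are Irf7 in both tumour comparisons, Irf4 in the Tconv and Irf8 in the Treg tumour comparison, and Irf4, Irf5 and Irf8 in comparisons of Treg with Tconv.

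Whether the tumour change differed between Treg and Tconv was tested directly as an interaction, with 24.7% of all genes called (11.7% with the larger value in Treg and 13.1% with the smaller), and 3 members passed. For Irf4 the Treg change was smaller than the Tconv change by 1.71 log2 units (-1.71 ± 0.13, adjusted p = 5.32e-06). For Irf7 it was larger by 0.95 ± 0.21 (adjusted p = 0.00613). For Irf8 it was larger by 0.67 ± 0.16 (adjusted p = 0.00839), and without TB spleen Tconv replicate 2 it was 0.54 with an adjusted p of 0.0570. The intervals for Irf3 (-0.13 to 0.34), Irf9 (-0.38 to 0.24) and Irf5 (-0.66 to 0.70) exclude a difference as large as the 0.95 of Irf7, and that of Irf5 is the widest.

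**Figure D3:**
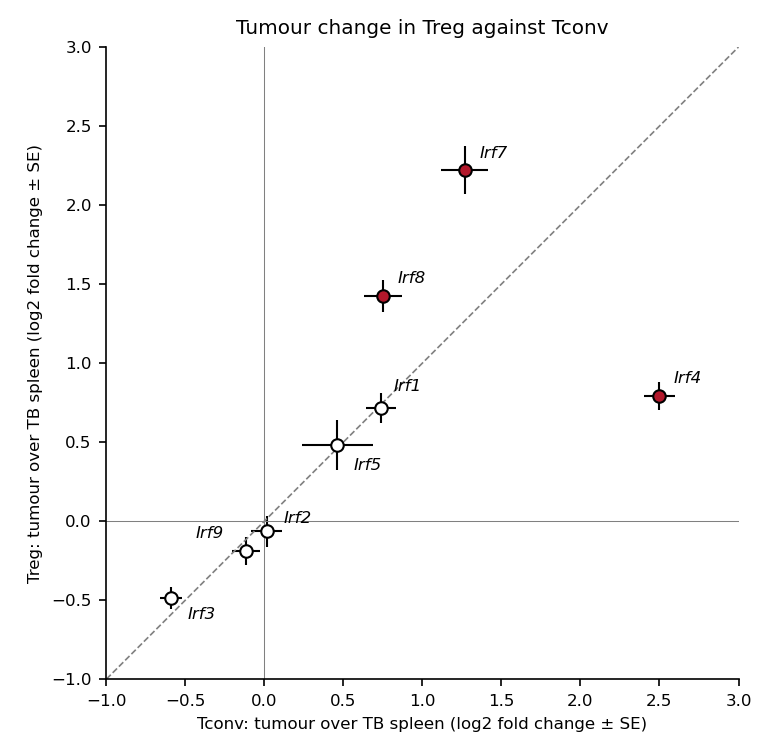
Log2 fold change from TB spleen to tumour in Treg (vertical) against Tconv (horizontal) for each gene, with SE bars, the line of equal change dashed, and filled points where the interaction passed the test. Irf7 and Irf8 lie above the line and Irf4 lies far below it, at 2.50 in Tconv and 0.79 in Treg.

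Between Treg and Tconv, 3 members were called higher in Treg at each site and 0 lower, against 53.9% of all genes called in tumour (27.2% higher and 26.7% lower), 40.3% in TB spleen (21.0% and 19.4%) and 40.6% in normal spleen (21.8% and 18.7%). In tumour these were Irf5, Irf7 and Irf8, and in each spleen Irf4, Irf5 and Irf8. Irf1, Irf2, Irf3 and Irf9 had log2 differences between -0.14 and 0.21 at the 3 sites, and 0 of them passed the test. Without tumour Treg replicate 1, Irf1 (0.30, adjusted p = 0.0228) and Irf2 (0.24, adjusted p = 0.0373) passed in the tumour. In TB spleen, Irf7 was lower in Treg with an adjusted p of 0.0223 without tumour Tconv replicate 1, 0.0219 without tumour Tconv replicate 2 and 0.0246 without TB spleen Treg replicate 2.

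The spleens of TB and normal mice differed less. In Treg, 0 of the 8 members passed edgeR's test in the fit of all 6 groups, against 15.3% of all genes (6.80% higher and 8.50% lower). In that fit 5 members had an unadjusted p under 0.05, while DESeq2 called 1 and limma-voom called 1. The nearest by edgeR were Irf1 (-0.29 ± 0.09, adjusted p = 0.0600) and Irf8 (-0.30 ± 0.10, adjusted p = 0.0647), both with lower values in TB mice. With only the spleen Treg groups fitted, edgeR called Irf1 (-0.28, adjusted p = 0.0174), Irf2 (-0.24, adjusted p = 0.00854) and Irf8 (-0.30, adjusted p = 0.0306) lower in TB mice. The same fit called Irf5 higher (0.38, adjusted p = 0.00215). Irf1 passed without tumour Treg replicate 1 (-0.29, adjusted p = 0.0285) or 2 (-0.29, adjusted p = 0.0279) and without tumour Tconv replicate 1 (-0.28, adjusted p = 0.0488) or 2 (-0.28, adjusted p = 0.0436). Irf2 passed without tumour Treg replicate 1 (-0.25, adjusted p = 0.0293) or 2 (-0.25, adjusted p = 0.0289), and Irf5 passed without TB spleen Tconv replicate 1 (0.37, adjusted p = 0.0224) or 2 (0.37, adjusted p = 0.0226).

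In Tconv, 4 members were called between the spleens, against 17.2% of all genes (9.74% higher and 7.49% lower). Irf1 (-0.43 ± 0.09, adjusted p = 0.0100) and Irf2 (-0.31 ± 0.10, adjusted p = 0.0490) were lower in TB mice, and Irf5 (0.89 ± 0.26, adjusted p = 0.0331) and Irf7 (0.54 ± 0.15, adjusted p = 0.0290) were higher. Most of these calls were lost when 1 library was left out. Without normal spleen Tconv replicate 1 or 2, 0 members were called, Irf5 standing at 1.03 (adjusted p = 0.0876) and 0.75 (adjusted p = 0.222) and Irf1 at -0.44 (adjusted p = 0.0521) and -0.41 (adjusted p = 0.0790). Without TB spleen Tconv replicate 1 only Irf5 was called, with Irf1 at -0.36 (adjusted p = 0.0940), and without replicate 2 only Irf1 was, with Irf5 at 0.29 (adjusted p = 0.400). That second library held 171 counts of Irf5 against 74 in its partner. Irf7 had an adjusted p of 0.0636 to 0.169 without any 1 of those 4 libraries, and Irf2 one of 0.0671 to 0.251 without any 1 of the 8 spleen libraries. Irf4 in Tconv was 0.29 ± 0.10 (adjusted p = 0.0703) and passed without tumour Tconv replicate 1 (0.30, adjusted p = 0.0477). Whether the spleen change differed between Treg and Tconv was tested as well: edgeR called 0 members against 0.851% of all genes (0.222% higher and 0.629% lower), 2 members had an unadjusted p under 0.05, and DESeq2 called 0.

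Levels of different genes were compared per kilobase of exon, since longer transcripts give more reads. In every spleen group Irf1 was the highest of the 8 and Irf2 the second, at 84.9 ± 2.27 and 79.7 ± 2.15 CPM per kilobase in TB spleen Treg. In tumour Treg, Irf7 came first at 158 ± 15.6 CPM per kilobase, followed by Irf1 at 139 ± 16.8, and their SDs overlap. The share of Irf7 in the sum of the 8 was 29.0% ± 3.73 in tumour Treg and 24.1% ± 3.48 in tumour Tconv, against 7.21% to 14.2% in the spleen groups. The sum itself was 546 ± 16.5 CPM per kilobase in tumour Treg, 355 ± 13.4 in TB spleen Treg and 389 ± 16.4 in normal spleen Treg. In Tconv it was 429 ± 32.0, 303 ± 20.7 and 336 ± 0.555 CPM per kilobase at the same sites. Irf5 and Irf8 were the lowest of the 8 in every group, and in tumour Treg they stood at 24.9 ± 1.62 and 20.0 ± 1.23 CPM per kilobase.

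**Figure D4:**
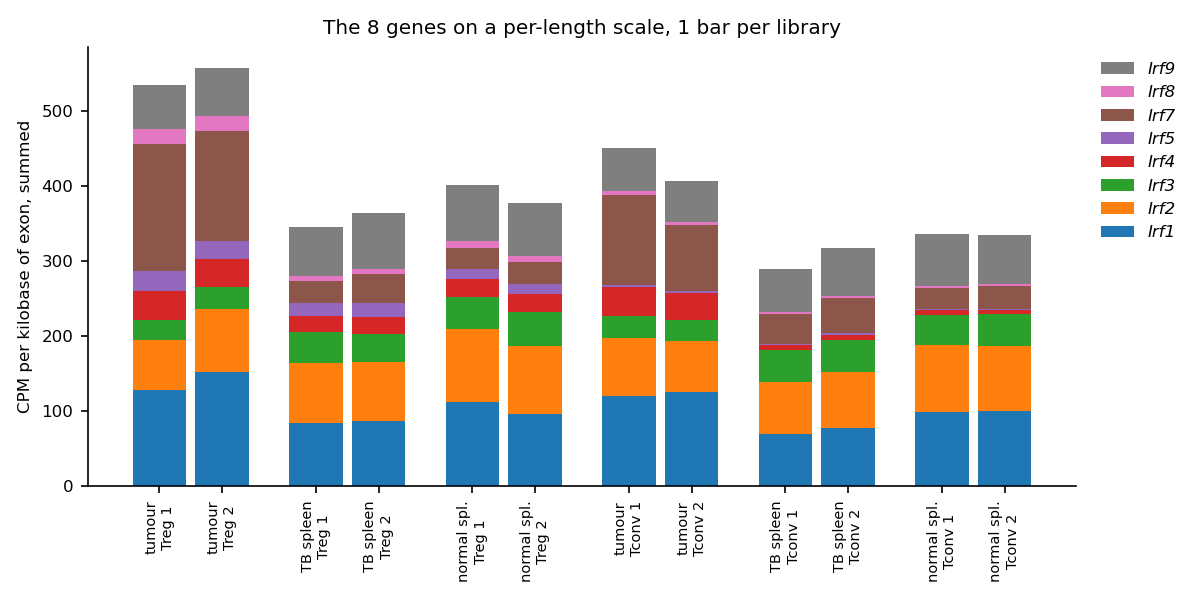
CPM per kilobase of exon of the 8 genes stacked in 1 bar per library, axis from 0. The Irf7 segment is 158 CPM per kilobase on average in tumour Treg and 104 in tumour Tconv, and at most 43.1 in the spleen groups.

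The genes with the most similar profile across the 12 libraries were found for the 4 members whose group means spanned at least 1 log2 unit, by the smallest root mean square (RMS) difference of centred log2 CPM among 8356 genes. For Irf7 they were Ifit1 (0.182), Ifit3 (0.201), both RNA-binding interferon-stimulated genes, and Fzd5 (0.248), a Wnt receptor. Ifit1 measured 277 ± 4.85 CPM in tumour Treg and 59.4 ± 17.1 CPM in TB spleen Treg, and 189 ± 27.0 and 78.3 ± 15.5 CPM in Tconv of the same sites. For Irf4 they were Ahr (0.286), the aryl hydrocarbon receptor, Plscr1 (0.347), a phospholipid scramblase, and Arhgef10 (0.375), a guanine nucleotide exchange factor. Ahr measured 69.7 ± 1.86 CPM in tumour Treg and 43.0 ± 0.725 CPM in tumour Tconv, where Irf4 overlapped. For Irf5 they were Fam129a (0.239), Ptprj (0.292), a receptor tyrosine phosphatase, and Osbpl3 (0.351), and for Irf8 Crmp1 (0.223), Gbp10 (0.246) and Bcl2l1 (0.252), which encodes the survival protein BCL-XL. Gbp10 belongs to a family with near-identical copies, so its reads are uncertain. These profiles share libraries, depth and scaling with those of the members.

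**Figure D5:**
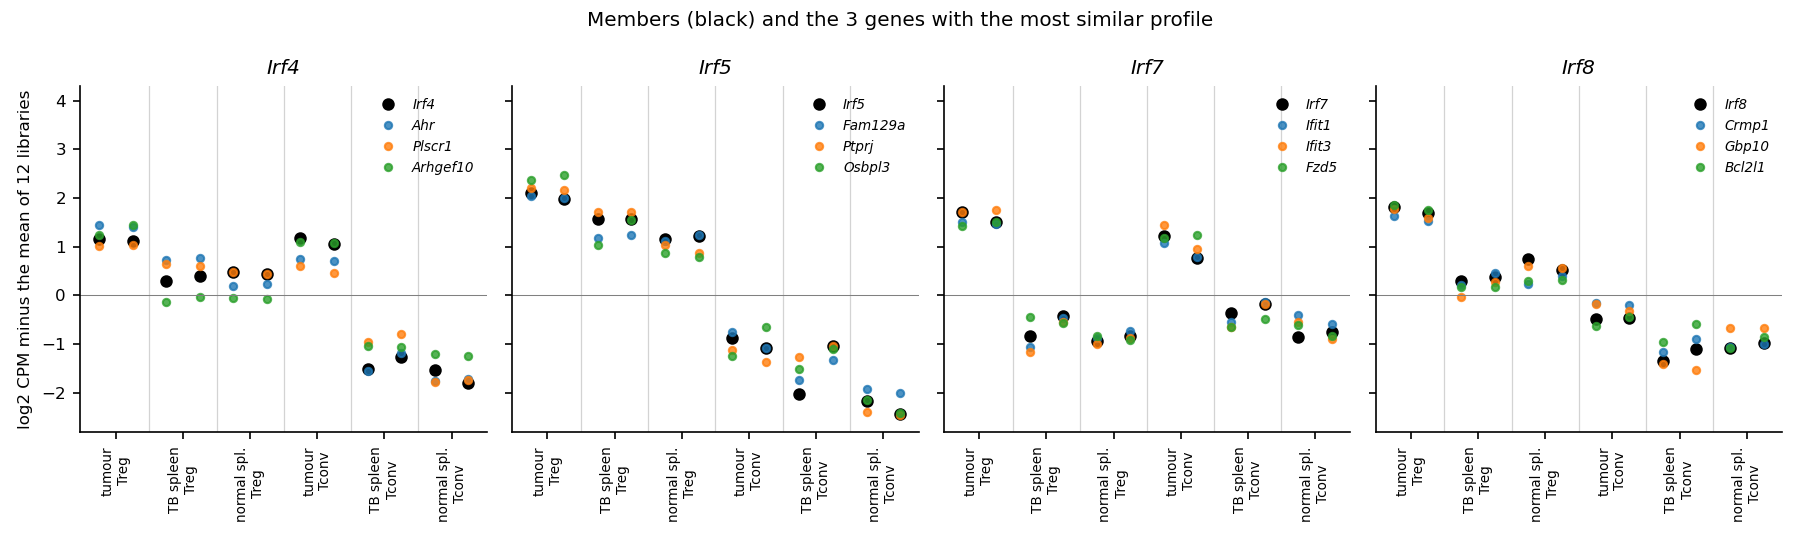
Log2 CPM minus the mean of the 12 libraries for Irf4, Irf5, Irf7 and Irf8 (black) and the 3 genes closest to each, with 2 points per gene in each group. Ifit1 and Ifit3 follow Irf7 with RMS differences of 0.182 and 0.201, and the genes nearest to Irf4 follow it less closely, from 0.286 to 0.375.

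Ligands and receptors upstream of the factors were read next. Beside the tumour counts of this and the later lists, 32.8% of all tested genes rose and 28.7% fell in Treg. In Tconv 26.4% rose and 22.8% fell. Of 10 interferon genes, only Ifng, interferon gamma, had enough reads to be tested. It rose in tumour in both cell types, from 1.35 ± 0.526 to 3.33 ± 0.355 CPM in Treg and from 6.93 ± 1.55 to 11.5 ± 0.0923 CPM in Tconv. Ifnb1 had at most 2 counts in any library, and Ifna1, Ifna2, Ifna4 and Ifna5 had 0 in all 12. Among 14 receptor, JAK-STAT and feedback genes, 10 rose and 4 fell in tumour Treg (median 0.30 log2 units, all genes 0.02), and 7 rose and 2 fell in tumour Tconv (median 0.22, all genes 0.00). Usp18, a brake on the type I receptor, rose in Treg (1.20 ± 0.11). The interferon gamma receptor chain Ifngr2 rose in Tconv from 70.2 ± 6.28 to 458 ± 11.3 CPM (2.71 ± 0.11), and its Treg change was smaller (interaction -2.39 ± 0.16, adjusted p = 1.77e-06). Socs3, a feedback inhibitor, had the same form in Tconv (1.92 ± 0.12, interaction -1.55 ± 0.17). Ifnar2, a chain of the type I receptor, fell in both (-0.68 ± 0.07 in Treg and -0.33 ± 0.07 in Tconv).

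The other receptor chain, Ifngr1, differed between the spleens more than any member did. It was 1418 ± 19.8 CPM in TB spleen Treg and 347 ± 33.6 CPM in normal spleen Treg (2.03 ± 0.11, adjusted p = 5.06e-07), and 500 ± 70.4 against 194 ± 24.2 CPM in Tconv (1.36 ± 0.11, adjusted p = 1.16e-05). Irf1 had its lowest levels in the TB spleen groups, although its Treg difference between the spleens did not pass edgeR's test (adjusted p = 0.0600). Of 15 antigen processing genes known as targets of IRF1 and NLRC5, 8 were lower and 1 higher in TB spleen Treg (median -0.27, all genes 0.00), and 8 lower and 2 higher in Tconv (median -0.26). Over all tested genes, 8.50% were lower and 6.80% higher in Treg, and 7.49% lower and 9.74% higher in Tconv. Psme2, a proteasome activator subunit, was lower in both (-0.46 ± 0.07 in Treg and -0.43 ± 0.07 in Tconv), and Nlrc5 itself was higher (0.30 ± 0.06 and 0.62 ± 0.06). A link of these genes to Irf1 or Ifngr1 was not tested.

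Sensors and kinases upstream of IRF3 and IRF7 moved in both directions in the tumour. Of 18 tested, 7 rose and 6 fell in Treg (median 0.04), and 5 rose and 8 fell in Tconv (median -0.08). Over all tested genes, 61.4% were called in Treg and 49.1% in Tconv. Dhx58, a regulator of RNA sensing, rose (1.08 ± 0.12 in Treg and 0.84 ± 0.13 in Tconv), as did Trim25, which activates the RNA sensor RIG-I (0.73 ± 0.08 and 0.66 ± 0.08). Tmem173, which encodes the adaptor STING, fell (-0.48 ± 0.07 and -0.82 ± 0.07), and Ikbke, a kinase of IRF3 and IRF7, fell in Treg (-0.66 ± 0.06). Tlr7, an endosomal RNA receptor, was higher in Treg than in Tconv in the tumour (1.38 ± 0.10), TB spleen (1.05 ± 0.10) and normal spleen (1.82 ± 0.10).

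Interferon-stimulated effector genes, downstream of IRF7 and IRF9, rose widely in the tumour. Of 25, 22 rose and 0 fell in Treg (median 1.96), and 21 rose and 1, Ifi47, fell in Tconv (median 1.18). Over all tested genes, 32.8% rose in Treg and 26.4% in Tconv. The site interaction called 11.7% of all genes with the larger change in Treg and 13.1% with the smaller. Cxcl10, the chemokine ligand of CXCR3, went from 8.15 ± 0.141 to 190 ± 22.4 CPM in Treg (4.54 ± 0.19) and from 3.47 ± 0.418 to 47.0 ± 3.41 CPM in Tconv (3.75 ± 0.21). Rsad2, which encodes the antiviral enzyme viperin, rose by 2.72 ± 0.23 in Treg and 2.25 ± 0.23 in Tconv. The Treg change was the larger for 12 genes and the smaller for 1, Parp14, by the interaction test, among them Oasl1 (1.34 ± 0.23) and Bst2 (1.04 ± 0.19). Of the 15 antigen processing genes, 11 rose and 1 fell in tumour Treg, 5 rose and 1 fell in tumour Tconv, and 8 passed the interaction test in favour of Treg and 1, Gbp2, against it. Tap1, a peptide transporter subunit, rose from 451 ± 28.2 to 806 ± 124 CPM in Treg and stood at 357 ± 14.8 and 356 ± 29.2 CPM in Tconv of TB spleen and tumour. Promoters of 9 of the 18 effector genes found in the RefSeq table held the response element core that 1 of the 8 members held.

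Partners of IRF4 and IRF8 were read beside Irf4. Of 15 tested, 7 rose and 3 fell in tumour Treg (median 0.50), and 11 rose and 0 fell in tumour Tconv (median 0.51). Batf, which binds with JUN proteins next to IRF4, rose in tumour Tconv from 45.7 ± 2.99 to 103 ± 2.69 CPM (1.17 ± 0.09) and stood at 110 ± 5.03 and 119 ± 9.74 CPM in Treg of TB spleen and tumour. Its interaction was -1.06 ± 0.12 (adjusted p = 7.73e-05), of the same sign as that of Irf4. Prdm1, which encodes BLIMP-1, rose in Treg (1.06 ± 0.09) from 94.4 ± 10.1 to 196 ± 0.927 CPM. Spi1, which encodes PU.1, had 0 to 6 counts in spleen and 21 to 75 counts in tumour libraries. The AP-1 genes Junb (2.19 ± 0.41 in Treg and 2.62 ± 0.42 in Tconv) and Jund (1.48 ± 0.11 and 1.49 ± 0.11) rose beside the immediate early sums given above, and the part of tissue dissociation was not tested.

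Proteins that bind the factors or depend on them complete the pathway. Of 10 IRF-binding regulators, 4 rose and 3 fell in tumour Treg (median 0.12), and 2 rose and 3 fell in Tconv (median 0.04). Irf2bp2, a partner of IRF2, rose (0.78 ± 0.08 and 1.27 ± 0.09), and Trim21, a ubiquitin ligase of several IRFs, fell (-0.86 ± 0.10 and -0.84 ± 0.10). Swap70, which binds IRF4 in T cells, was 216 ± 7.02 CPM in tumour Treg and 19.7 ± 2.42 CPM in tumour Tconv, and its Treg over Tconv difference was 3.45 ± 0.10 in tumour, 3.98 ± 0.10 in TB spleen and 3.68 ± 0.10 in normal spleen. Of 20 effector genes linked to IRF4 in T cells, 18 rose and 1, the cytokine gene Il21, fell in tumour Treg (median 2.06), and 14 rose and 2, Il21 and Il2ra, fell in tumour Tconv (median 1.51). Il17a and Il21 fall outside the rule for named genes and were chosen after their values were seen. Nfil3, a transcription factor, rose in both (2.91 ± 0.13 and 2.81 ± 0.15). Il2ra, the interleukin-2 receptor alpha chain and itself a Treg marker, was lower in tumour than in TB spleen Tconv (-1.62 ± 0.16). Its Treg change was larger (interaction 2.63 ± 0.21). In Tconv, Il2ra had 324 and 380 counts in tumour, 816 and 1468 in TB spleen, and 314 and 327 in normal spleen. Tumour Tconv was therefore near normal spleen Tconv, and the 2 TB spleen libraries differed widely. Between tumour Treg and tumour Tconv the Irf4 difference was 0.02. Of the 20 genes, 18 were higher and 2, Il17a and Il21, lower in Treg (median 2.99, all genes 0.00). Over all tested genes, 27.2% were higher and 26.7% lower. The 20 summed to 15129 to 15737 CPM in tumour Treg and 1949 to 2249 in tumour Tconv. Treg was also above Tconv in TB spleen (4412 to 4566 against 736 to 883 CPM) and normal spleen (3267 to 3386 against 404 to 433). A link of these sums to Irf4 was not tested.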

How the data were processed

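Messenger RNA of 12 libraries of sorted CD4+ T cells was measured by RNA sequencing with a stranded kit. The deposited table gives raw counts of reads for each gene in each library, not scaled by the authors. STAR, featureCounts and mm10 are named without versions, per the submitters' processing notes, and whether counting used strand is not stated in any source used here. Libraries were grouped by title, which gives status, site, cell type and replicate number.

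Genes were kept by filterByExpr (13509 of 24062), scaled by TMM (factors 0.942 to 1.07) and fitted in 1 edgeR 4.0.16 quasi-likelihood model of 6 group means (R 4.3.3), with 6 residual degrees of freedom. The 7 comparisons and 2 interactions are two-sided tests, adjusted by Benjamini-Hochberg across the 13509 genes and called at 0.05. SEs were derived from the F statistic (absolute log2 fold change over root F), and 95% intervals use that SE and 6 degrees of freedom. CPM values use TMM-scaled totals, and CPM per kilobase uses the union of exons of the mm10 annotation (GENCODE, GRCm38). Replicates varied by 14.9 times the counting variance in tumour Treg and 16.4 in tumour Tconv. In TB spleen this was 6.62 in Treg and 9.37 in Tconv, and in normal spleen 4.79 and 3.45. All 6 groups shared 1 estimate of the spread per gene, so the noisier tumour libraries enter the tests between spleens.

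The 8 genes and 19 other gene lists were chosen with earlier results of these data known. Named genes are the members, the called list genes with the largest changes at a mean log2 CPM of at least 3 (up to 4 a direction, those printed chosen among them), and the 3 nearest profiles. Motifs were searched in RefSeq promoters, with no test. The alternatives tried were limma-voom (limma 3.58.1), DESeq2 1.42.0, DESeq2 size factors, unscaled library totals, other low-count filters, replicate blocks, only the groups compared, and leaving out each library. The procedure was tested on simulated data. Figures were drawn with matplotlib 3.10.9.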

Additional observations from a re-analysis of the deposited data

Results flagged for a closer look

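The change from TB spleen to tumour differed between Treg and Tconv, by a direct interaction test in the model of all 12 libraries, for 3 of the 8 genes. For Irf4 the Treg change minus the Tconv change was -1.71 ± 0.13 log2 units (adjusted p = 5.32e-06 by edgeR, n = 2 libraries a group), from a rise of 0.79 in Treg and of 2.50 in Tconv. For Irf7 it was 0.95 ± 0.21 (adjusted p = 0.00613), from rises of 2.22 and 1.27. For Irf8 it was 0.67 ± 0.16 (adjusted p = 0.00839), from rises of 1.42 and 0.75, and the call was lost without TB spleen Tconv replicate 2 (0.54, adjusted p = 0.0570). Leaving out any other library kept all 3 calls.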

How the results depend on the processing

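Of 648 values of single members under other settings, 623 kept their side of the threshold, the called ones with their direction. Of the rest, 10 lost the call, 15 gained it and 0 reversed a call. The signs of values uncalled in both fits were not compared, and some changed. When 1 library was left out, 823 of 864 were kept, 22 lost and 19 gained. The number of called members moved in 7 comparisons. For tumour against TB spleen it ran from 5 to 8 around 6 in Treg over the fits without 1 library. In Tconv it went from 5 to 6 with DESeq2 (Irf5), with unscaled totals (Irf9) and without TB spleen Tconv replicate 2 (Irf5). The site interaction went from 3 to 2 without that library (Irf8). For Treg against Tconv it went from 3 to 5 in TB spleen when only the groups compared were fitted, and ran from 3 to 5 in the tumour over the fits without 1 library. Between TB and normal spleen Treg it went from 0 to 1 with DESeq2 (Irf1), 1 with limma-voom (Irf5) and 4 with only the groups compared, and ran from 0 to 2 without 1 library. For Tconv it went from 4 to 2 with limma-voom and ran from 0 to 5 without 1 library. The cause was not tested.

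Same-numbered libraries of different groups deviated together weakly (r from -0.13 to 0.15 across genes). For Treg with Tconv of the same source, r by title number was 0.15 in tumour, 0.12 in TB spleen and 0.089 in normal spleen. The other pairs of groups ran from -0.13 to 0.10. The numbers were not treated as pairs in the main fit, and these values do not settle whether libraries share a mouse. With a replicate block by title number the 4 calls between spleen Tconv became 3, and by the number in the descriptions 1.

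Over all genes, 2066 were called between the Treg spleens, against 512 to 3670 under the alternatives, and 2328 between the Tconv spleens, down to 751. The spleen interaction gave 115, against 42 to 320, and the site interaction 3337, against 2161 without TB spleen Treg replicate 1. With unscaled library totals the higher share of calls went from 44.4% to 66.5% between the Treg spleens and from 56.5% to 78.5% between the Tconv spleens, and 12 of 48 member levels moved by more than their SD, by -4.71% to 6.80%. Depth limits Irf5 in Tconv most, at 60 to 171 counts a library, and then Irf8 in Tconv, at 152 to 325.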
